A study of Mus musculus with 12 samples.

Results

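The genes described here are 10 that fat cells use to store and take up lipid or that are read as signs of fat in a tissue: *Plin2*, *Plin4*, *Plin1* and *Cidec*, whose proteins coat the lipid droplet, *Lpl*, *Cd36* and *Fabp4*, which bring fatty acids in and carry them, *Pparg*, the regulator of the fat cell program, and *Adipoq* and *Cfd*, which encode secreted proteins. They were taken by name, and 9 of the 10 were read from a table of 15687 genes, while *Plin1* was not analysed here. The tumors grew from mTc11, a mouse lung cancer cell line, and the cells of both groups carried a lentiviral shRNA and were selected with puromycin. The hairpin was a control in the CTL tumors (shControl in the labels) and was directed against *Filip1l* in the *Filip1l*-knockdown tumors. The cells were used as mixed clones, were placed in Matrigel under the skin of male C57BL6/J mice at 8 weeks of age, and gave tumors that were collected at day 24. Each group held 6 tumors, named below by group and replicate number. Which of the study's hairpins the sequenced knockdown tumors carried is not given in the sources used here. The tumors were bulk tissue that lay in the subcutaneous layer and contained mouse host cells beside the cancer cells.

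A lipid droplet is a core of triglyceride and sterol ester inside a single phospholipid layer to which perilipins and CIDE proteins bind. Perilipin 2 is found on droplets of most cell types, whereas perilipin 1, perilipin 4 and CIDEC are best known from fat cells, where CIDEC moves lipid from small droplets into larger ones. Lipoprotein lipase frees fatty acids from circulating lipoproteins, CD36 helps them across the plasma membrane and FABP4 binds them in the cytosol. PPARγ, with its partner RXR, binds DNA at direct repeats of a nuclear receptor half-site and turns on many of these genes in fat cells. It is also made outside fat, for instance in macrophages and in gut epithelium. Adiponectin, the product of *Adipoq*, and complement factor D, the product of *Cfd*, are released by fat cells into the blood.

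The 250 bases before the annotated start of 3 of the genes are shown because these genes carry the contrast of the data: *Plin2* was lower and *Cidec* higher in *Filip1l*-knockdown tumors, and *Pparg* is the regulator most often linked to both. They are from RefSeq on GRCm38.p6, written 5′ to 3′ on the strand of the gene, with the half-site AGGTCA or its reverse complement TGACCT in capitals. The windows are chr4:86670060-86670309 on the - strand for *Plin2*, chr6:113435761-113436010 on the - strand for *Cidec*, and chr6:115360894-115361143 and chr6:115362099-115362348 on the + strand for the first and the second annotated start of *Pparg*.
Plin2: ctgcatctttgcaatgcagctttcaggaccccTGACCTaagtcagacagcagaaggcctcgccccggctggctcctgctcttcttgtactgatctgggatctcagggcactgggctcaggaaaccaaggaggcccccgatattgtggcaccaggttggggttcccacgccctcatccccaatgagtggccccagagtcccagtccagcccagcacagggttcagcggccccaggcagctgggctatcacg
Cidec: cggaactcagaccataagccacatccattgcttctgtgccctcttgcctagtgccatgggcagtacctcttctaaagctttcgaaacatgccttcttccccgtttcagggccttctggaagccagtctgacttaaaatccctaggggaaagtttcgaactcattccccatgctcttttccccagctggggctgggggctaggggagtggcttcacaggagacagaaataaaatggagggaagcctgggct
Pparg, first start: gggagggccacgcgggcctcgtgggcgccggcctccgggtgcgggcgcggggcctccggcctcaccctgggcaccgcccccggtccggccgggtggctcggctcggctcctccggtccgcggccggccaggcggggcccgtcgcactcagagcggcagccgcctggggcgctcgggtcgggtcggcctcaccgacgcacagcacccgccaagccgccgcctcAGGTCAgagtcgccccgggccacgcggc
Pparg, second start: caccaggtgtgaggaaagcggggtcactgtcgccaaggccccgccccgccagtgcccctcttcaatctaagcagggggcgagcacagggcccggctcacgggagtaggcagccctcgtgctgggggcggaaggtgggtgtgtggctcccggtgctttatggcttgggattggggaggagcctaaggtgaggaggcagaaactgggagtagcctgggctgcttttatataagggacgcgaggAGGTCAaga
The half-site AGGTCA, searched on both strands, was in 4607 of 32851 such windows of the mouse genome (14%). It began 218 bases before the start of *Plin2* (position -218) and at -28 and -9 before the first and second starts of *Pparg*. It was also at -228 before a start of *Cd36* that lies inside the annotated gene. For *Cd36* and *Cidec* the bases just after the start did not match an annotated transcript of the gene, and the reason was not examined. The third *Pparg* window and the windows of *Cidec*, *Cfd*, *Adipoq*, *Plin4* and *Plin1* held no such letters. The direct repeat AGGTCANAGGTCA, which contains the half-site, was in 11 of the 32851 windows (0.0335%) and in 0 of the 11 windows of these genes. Of the 10 genes, 8 were in the table of sequences, and *Fabp4* and *Lpl* were not looked up elsewhere.

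Values are gene counts divided by a size factor of the tumor, called normalized counts, and they compare 1 gene between tumors. The tumors had 17834745 to 32419578 reads on the listed genes, with CTL replicate 5 the shallowest, and 3 reads corresponded to 2.59 to 4.48 normalized counts. Fold changes are differences of group means, *Filip1l*-knockdown minus CTL, on the scale of log2(normalized count + 1). For low genes they depend on the added 1 and can lie above or below those of count models such as edgeR and DESeq2. A gene passed the test at a limma adjusted p under 0.05 over all 15687 genes. *Filip1l* itself ranged from 1983 to 2542 normalized counts in CTL tumors (median 2354) and from 1670.1 to 2184 in *Filip1l*-knockdown tumors (median 1935). The groups overlapped, and the log2 fold change of *Filip1l* was -0.26 (SE 0.07, limma adjusted p = 0.00998, exact two-sided permutation p = 0.00649). Of 6 epithelial cell markers, 5 rose and 0 fell, and their sum did not overlap between the groups, at 135463 to 176172 normalized counts in CTL and 189996 to 354598 in *Filip1l*-knockdown tumors. Of 8 analysed lung epithelium markers, 3 rose and 0 fell, with a sum of 4110 to 6088 in CTL and 6698 to 8996 in *Filip1l*-knockdown tumors. The part of these cells in the results below was not tested. Some defining lung markers were low, with *Nkx2-1* at 17.2 and 39.4 and *Sftpc* at 9.76 and 29.2 mean normalized counts in CTL and *Filip1l*-knockdown tumors.

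Of the 9 genes, 5 rose in *Filip1l*-knockdown tumors (*Cidec*, *Fabp4*, *Lpl*, *Cd36* and *Pparg*), 1 fell (*Plin2*) and 3 did not pass the test (*Adipoq*, *Cfd* and *Plin4*). Over all genes tested, 21.1% were higher and 20.7% lower by the same rule. These shares are the background for the count of every gene list in this report. With a log2 fold change over 1 required as well, 4 of the 9 were higher (*Cidec*, *Fabp4*, *Lpl* and *Cd36*), against 6.2% of all genes, and 0 were lower, against 3.97% of all genes. The groups did not overlap for 4 of the 9 genes. *Cidec*, *Lpl* and *Cd36* were higher in every *Filip1l*-knockdown tumor than in any CTL tumor, a pattern of 10.6% of all genes, and *Plin2* was lower in every one, a pattern of 10.9%. The median log2 fold change of the 9 genes was 1.10, beside 0.01 over all genes. That median is the value of *Adipoq*, a low gene that did not pass the test.

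**Figure D1:**
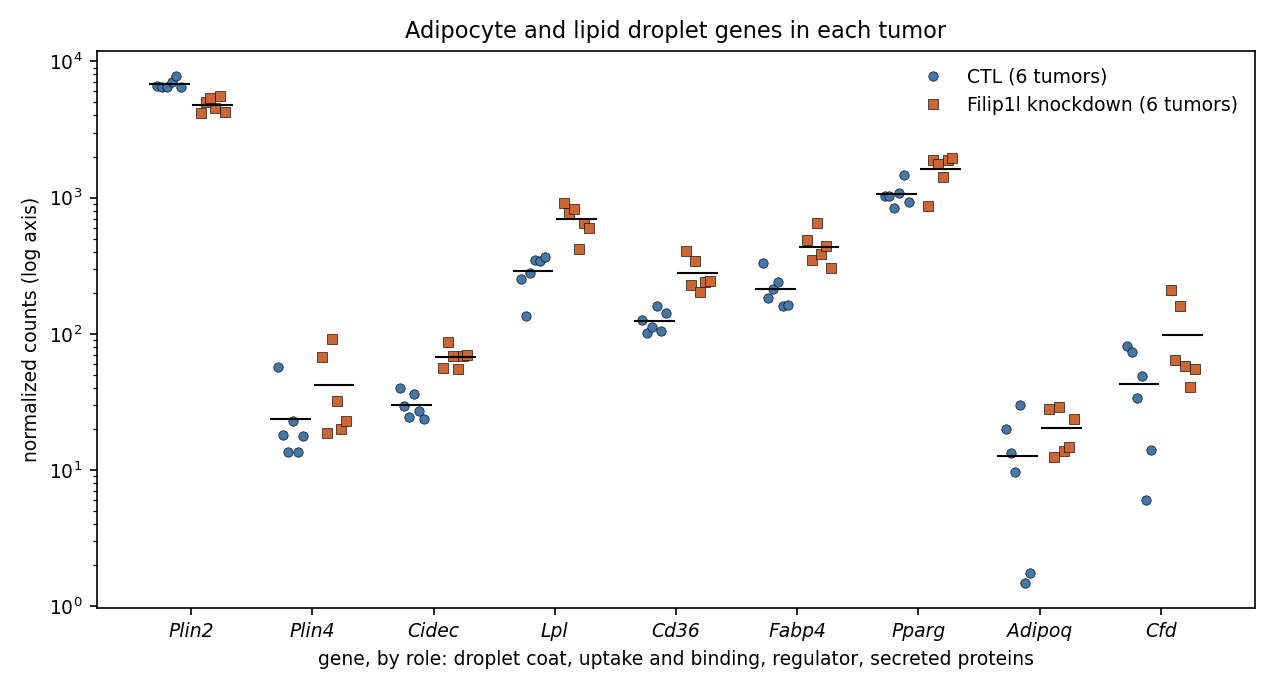
Normalized counts (log axis) of 9 genes in each of 6 CTL tumors (circles) and 6 *Filip1l*-knockdown tumors (squares), with a line at each group's mean. The groups of *Plin2*, *Cidec*, *Lpl* and *Cd36* do not overlap, while *Adipoq* falls to 1.49 and 1.76 in CTL replicates 5 and 6.

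The genes differed widely in level, which is compared between genes as normalized counts per kb of annotated exon. In CTL tumors *Plin2* stood at 1939 per kb, above 96.0% of 15661 genes, and *Pparg* at 358 per kb, above 75.3%. All the others lay below the median of all genes (125 per kb). *Fabp4* (47.8 ± 14.3, SD, n = 6) and *Cfd* (46.8 ± 33.6) could not be told apart in level, and *Cd36* (34.6), *Lpl* (27.4), *Cidec* (16.2), *Adipoq* (9.19) and *Plin4* (4.11) followed. *Adipoq* and *Plin4* were above only 11.4% and 4.8% of genes. In *Filip1l*-knockdown tumors *Plin2* (1370.4 per kb) and *Pparg* (549 per kb) still led, and the other 7 genes remained below the median of all genes (128 per kb), from *Cfd* at 106 to *Plin4* at 7.27 per kb. Genes read as signs of fat cells lay at different levels. *Cidec*, *Adipoq* and *Plin4* were the lowest of the 9 in both groups. *Fabp4* and *Cfd* had the highest means after *Plin2* and *Pparg* in both groups. *Lep* and *Retn*, which encode other fat cell hormones, were not analysed here.

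Droplet coat genes moved in opposite directions. *Plin2* ranged from 6428 to 7787 normalized counts in CTL tumors (median 6548) and from 4202 to 5532 in *Filip1l*-knockdown tumors (median 4793). Every *Filip1l*-knockdown tumor was below every CTL tumor, and the mean fell from 6812 ± 535 (SD, n = 6) to 4813 ± 578, which is -0.51 on the log2 scale (SE 0.08, limma adjusted p = 0.000159, exact two-sided permutation p = 0.00216, the smallest the design allows). In bulk tissue, less RNA per cell and fewer cells that make a gene cannot be told apart. *Cidec* had 23.8 to 40.0 normalized counts in CTL tumors (median 28.1) and 54.8 to 87.5 in *Filip1l*-knockdown tumors (median 68.6). Its groups were separate, with a log2 fold change of 1.15 (SE 0.18, limma adjusted p = 0.000186). *Plin4* overlapped between the groups. It ranged from 13.4 to 57.0 in CTL tumors (median 17.8), where replicate 1 stood above the other 5 tumors. In *Filip1l*-knockdown tumors it ranged from 18.7 to 90.8 (median 27.5), and replicates 3 (90.8) and 1 (67.6) were high. The log2 fold change of *Plin4* was 0.72 with a 95% interval from -0.23 to 1.67 (limma adjusted p = 0.215, exact permutation p = 0.171), which includes both no change and the sizes seen for *Cidec*. Only *Plin4* shared exon bases with another gene, 17 bases (0.294% of its exons) with *Hdgfl2* on the other strand.

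The relatives of these coat genes also differed among themselves. *Plin3*, the broadly made perilipin, had 2951 ± 329 normalized counts in CTL and 3023 ± 301 in *Filip1l*-knockdown tumors, a log2 fold change of 0.04 (95% interval -0.15 to 0.22, limma adjusted p = 0.764), and its sign turned when every tumor was scaled to the same total (-0.00485) or when chromosome medians were removed (-0.00101). Both other CIDE genes rose with separate groups. *Cidea*, known from brown fat, went from 46.4 to 102 normalized counts in CTL tumors to between 183 and 670.1 in *Filip1l*-knockdown tumors (log2 fold change 2.59, SE 0.27, limma adjusted p = 5.40e-06). *Cideb*, known from liver and gut, went from a range of 110 to 182 to one of 273 to 643 (log2 fold change 1.68, SE 0.23, limma adjusted p = 4.52e-05). *Cideb* lies on chromosome 14, where the median gene was higher by 0.38 (log2) in *Filip1l*-knockdown tumors, as do *Abhd6* and *Fitm1* named below.

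Among 20 analysed genes of droplet coat and assembly other than the 9, 8 rose, 3 fell and 9 did not pass the test, with a median log2 fold change of 0.11. Those past a log2 fold change of 1 were *Mettl7b* (3.17, limma adjusted p = 3.40e-06), a droplet-associated protein, *Cidea*, *Cideb*, *Fitm1* (1.51), which helps form droplets in muscle, *Pnpla3* (1.41), a droplet-bound lipase relative, and *G0s2* (1.23), an inhibitor of the lipase ATGL. *Mettl7b* rose from 38.3 ± 13.6 to 372 ± 147 normalized counts. *Hilpda*, the hypoxia-inducible ATGL inhibitor, and *Aup1* rose by less, with log2 fold changes of 0.89 and 0.39. *Bscl2* (seipin, which shapes the site where droplets bud), *Spg20* and *Lpcat1* fell, with log2 fold changes of -0.44, -0.68 and -0.82. *Fitm1* passed in 4 of the 12 fits that each left out 1 tumor. It did not pass without *Filip1l*-knockdown replicates 3 and 4 (log2 fold change 0.90, limma adjusted p = 0.189), with chromosome medians removed (1.13, limma adjusted p = 0.108) or with the replicate block (limma adjusted p = 0.0751).

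**Figure D2:**
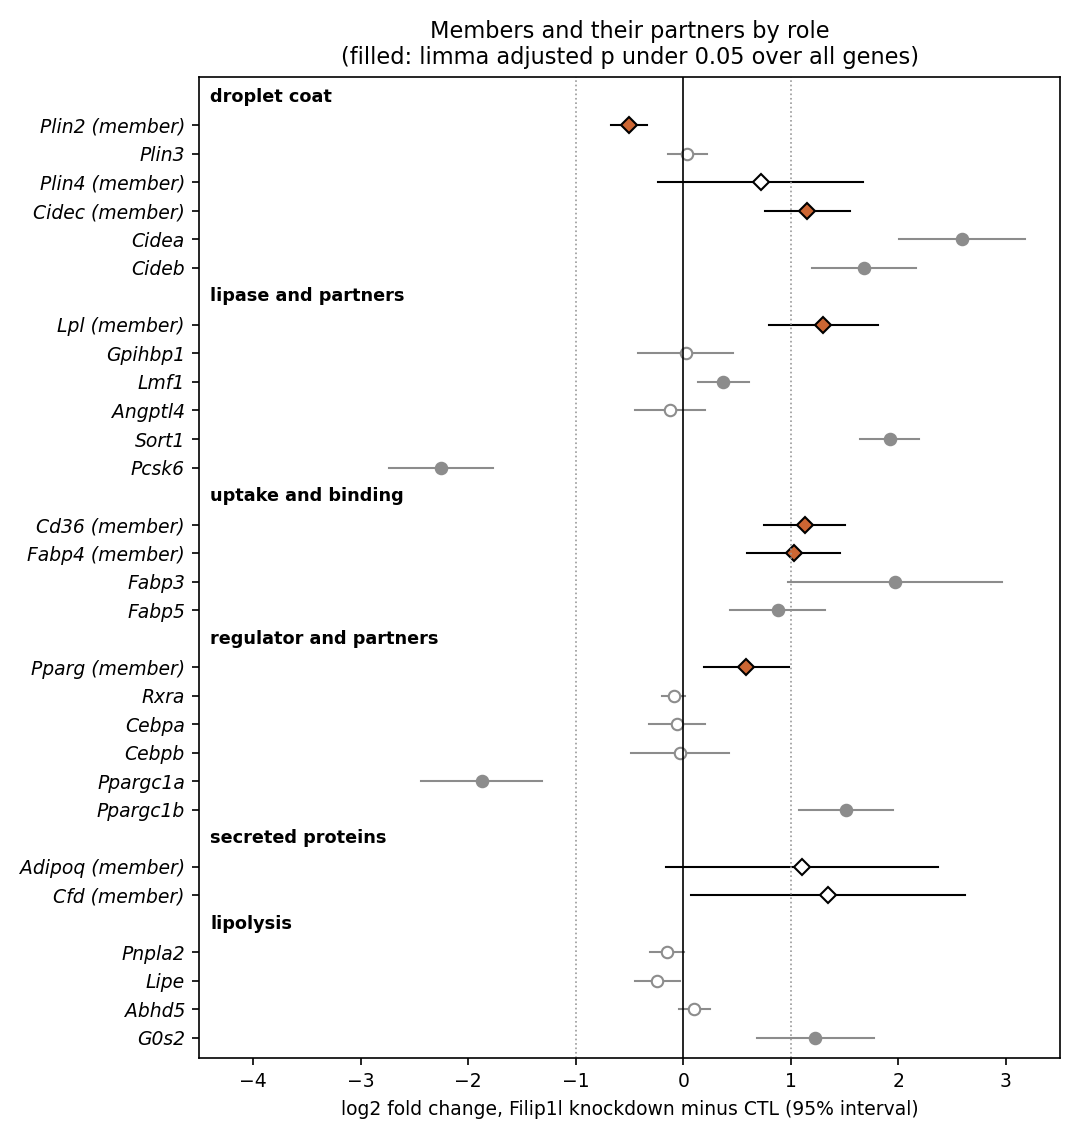
Log2 fold change, *Filip1l* knockdown minus CTL, with its 95% interval for the members (diamonds) and for partner genes (circles) by role, filled where the limma adjusted p over all genes is under 0.05 and with dotted lines at -1 and 1. *Plin2* lies left of 0 at -0.51 while *Cidec*, *Cidea* and *Cideb* lie right of 1.

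All 3 genes of fatty acid uptake and binding rose. *Lpl* ranged from 135 to 369 normalized counts in CTL tumors (median 310.3), lowest in replicate 2, and from 422 to 909.6 in *Filip1l*-knockdown tumors (median 708), lowest in replicate 4 and highest in replicate 1. No tumor overlapped, and the log2 fold change was 1.30 (SE 0.24, limma adjusted p = 0.000546). *Lpl* lies on chromosome 8, where the median gene was lower by 0.20 (log2) in *Filip1l*-knockdown tumors, and its log2 fold change was 1.499 once chromosome medians were removed. *Cd36* had 101.3 to 159 normalized counts in CTL tumors (median 119) and 203 to 407 in *Filip1l*-knockdown tumors (median 241). The groups were separate, with replicates 1 (407) and 3 (340.1) above the other knockdown tumors, and the log2 fold change was 1.13 (SE 0.18, limma adjusted p = 0.000156). *Fabp4* had 159.8 to 329 normalized counts in CTL tumors (median 198) and 305 to 648 in *Filip1l*-knockdown tumors (median 413). Only CTL replicate 1 reached into the knockdown range, above *Filip1l*-knockdown replicate 6, and the log2 fold change was 1.02 (SE 0.20, limma adjusted p = 0.000935, exact two-sided permutation p = 0.00433). *Lpl*, *Cd36* and *Fabp4* passed in 12 of the 12 fits that each left out 1 tumor.

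*Lpl*, *Cd36* and *Fabp4* are also made by macrophages or endothelial cells. Of 12 endothelial markers, 8 rose and 0 fell, with *Pecam1* at a log2 fold change of 0.54, and the markers summed to between 3725 and 4556 normalized counts in CTL and between 4581 and 7295 in *Filip1l*-knockdown tumors. Of 11 macrophage markers, 2 rose and 0 fell, and their sum ranged from 28331 to 38506 in CTL and from 25239 to 67497 in *Filip1l*-knockdown tumors, highest in replicate 1, the tumor that was also highest for *Lpl* and *Cd36*. None of these markers was at 0 in any tumor. Without that tumor the log2 fold changes of *Lpl*, *Cd36* and *Fabp4* were 1.21, 1.01 and 0.98, and all 3 passed the test. The part of these cells in the result was not tested. Leaving out that tumor cannot test it, since the endothelial sums of the other knockdown tumors (4581 to 6220) were still above every CTL sum.

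Of 14 analysed genes whose proteins act on or bind lipoprotein lipase, 5 rose, 2 fell and 7 did not pass. Among all genes 21.1% were higher and 20.7% lower. Of the 14 log2 fold changes, 11 were above 0, and their median was 0.34. *Gpihbp1*, which carries the lipase across capillary endothelium, had 183 ± 54.4 normalized counts in CTL and 179 ± 27.5 in *Filip1l*-knockdown tumors (log2 fold change 0.02, 95% interval -0.42 to 0.46, limma adjusted p = 0.951), with a sign that turned to -0.02 when tumors were scaled to the same total. *Angptl4*, a lipase inhibitor, had a log2 fold change of -0.13 (95% interval -0.45 to 0.20). *Lmf1*, which folds the lipase, rose by 0.37 (limma adjusted p = 0.0143), as did *Angptl8* (0.89), *Vldlr* (0.57) and *Lrp1* (0.33). *Sort1*, the sorting receptor sortilin, showed the largest rise of those that passed, from 778 ± 174 to 2889 ± 261 normalized counts (log2 fold change 1.92, limma adjusted p = 1.07e-07). *Pcsk6*, a protease that cleaves the lipase and its inhibitors, fell from 2899 ± 435 to 655 ± 336 (log2 fold change -2.25, limma adjusted p = 3.43e-06), and *Furin*, a related protease, had a log2 fold change of -0.27 and also fell.

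Of the other fatty acid binding protein genes analysed, *Fabp5*, *Fabp3* and *Fabp2* rose, while *Fabp1* and *Fabp7* did not pass the test. *Fabp5*, the epithelial form, went from 615 ± 145 to 1157 ± 348 normalized counts (log2 fold change 0.88, limma adjusted p = 0.00347). *Fabp3*, the form of heart and muscle, went from 17.1 ± 5.03 to 92.1 ± 81.8 (log2 fold change 1.97, limma adjusted p = 0.00366), with separate groups. Without *Filip1l*-knockdown replicates 3 and 4, those with the highest skeletal muscle marker sums, *Fabp3* was at 1.23 (limma adjusted p = 0.00739). *Fabp2*, the intestinal form, was at 0 in at least 1 CTL tumor and went from a median of 2.47 to a median of 27.2 normalized counts. Of the 18 analysed genes of binding, transport and activation, 5 rose, 5 fell and 8 did not pass, beside 21.1% higher and 20.7% lower among all genes. Their median log2 fold change was 0.21. *Acsl1* (0.47), the acyl-CoA synthetase of fat cells, and *Dbi* (0.51), an acyl-CoA binding protein, rose, whereas the synthetases *Acsl3* (-0.60) and *Acsl5* (-0.64), the transporter *Slc27a3* (-0.81) and the caveola genes *Cav1* (-0.31) and *Cavin1* (-0.36) fell.

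*Pparg* was higher in 5 of the 6 *Filip1l*-knockdown tumors than the CTL median. It ranged from 838 to 1456 normalized counts in CTL tumors (median 1022), highest in replicate 5, and from 870.3 to 1940.01 in *Filip1l*-knockdown tumors (median 1813). *Filip1l*-knockdown replicate 1, at 870.3, lay within the CTL range and replicate 4, at 1404, just below the highest CTL tumor. The log2 fold change was 0.59 (SE 0.18, limma adjusted p = 0.0199, exact two-sided permutation p = 0.0260). Without *Filip1l*-knockdown replicates 3 and 4 the limma adjusted p was 0.0546 at a log2 fold change of 0.59, and without *Filip1l*-knockdown replicate 1 the log2 fold change was 0.76. That replicate was the lowest knockdown tumor for *Pparg* and the highest for *Cfd*, *Lpl* and *Cd36*.

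*Rxra*, *Cebpa* and *Cebpb* did not pass the test. *Rxra*, which encodes a DNA-binding partner of PPARγ, had 2079 ± 87.3 normalized counts in CTL and 1954 ± 91.2 in *Filip1l*-knockdown tumors (log2 fold change -0.09, 95% interval -0.19 to 0.01). *Cebpa* and *Cebpb*, the CCAAT enhancer binding factors of adipogenesis, had log2 fold changes of -0.06 (95% interval -0.32 to 0.20) and -0.03 (-0.48 to 0.43), and the sign of *Cebpa* turned to 0.02 without *Filip1l*-knockdown replicate 4 and that of *Cebpb* to 0.09 without CTL replicate 5. The coactivators moved apart with separate groups: *Ppargc1a* fell from 120 ± 34.1 to 32.9 ± 13.5 normalized counts (log2 fold change -1.88, limma adjusted p = 5.84e-05) and *Ppargc1b* rose from 47.6 ± 12.1 to 137 ± 32.5 (1.51, limma adjusted p = 4.39e-05). Of the 24 analysed regulators and PPAR partners, 6 rose, 7 fell and 11 did not pass, beside 21.1% higher and 20.7% lower among all genes. *Mlxipl*, the carbohydrate-response factor, rose most (log2 fold change 2.13), with *Klf5*, *Klf4*, *Ppard* and *Srebf1* also higher, and *Irs2*, an adaptor of the insulin receptor, fell most after *Ppargc1a* (-1.21), with *Irs1*, *Insr*, *Cebpd* and *Rxrb* among the others that were lower.

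The secreted fat cell proteins were scattered. *Adipoq* ranged from 1.49 to 29.9 normalized counts in CTL tumors (median 11.5) and from 12.5 to 29.2 in *Filip1l*-knockdown tumors (median 19.1). The highest value of all was in CTL replicate 4, and 2 CTL tumors, replicates 5 and 6, were at or under 3 reads. The log2 fold change of *Adipoq* was 1.10 with a 95% interval from -0.16 to 2.37 (limma adjusted p = 0.151, exact permutation p = 0.139). With a pseudocount of 8 in place of 1 it was 0.59. On recovered reads it was 0.64 with edgeR (adjusted p = 0.367) and 0.67 with DESeq2 (adjusted p = 0.365). *Cfd* ranged from 5.98 to 82.0 normalized counts in CTL tumors (median 41.4), lowest in replicates 5 and 6, and from 40.6 to 209.8 in *Filip1l*-knockdown tumors (median 61.2), where replicates 1 (209.8) and 3 (161) stood above the other 4. The groups of *Cfd* overlapped, and the log2 fold change was 1.34 with a 95% interval from 0.07 to 2.62 (limma adjusted p = 0.0852, exact permutation p = 0.0909). Without CTL replicate 1, the highest CTL tumor, it was 1.62 and passed the test (limma adjusted p = 0.0488). In the other 11 fits that each left out 1 tumor *Cfd* did not pass, and its log2 fold change went down to 0.90 without CTL replicate 5 (limma adjusted p = 0.177). The interval of *Adipoq* includes no change and also a change of the size found for *Cidec* or *Lpl*, so a difference in *Adipoq* was not detectable with this spread between tumors.

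**Figure D3:**
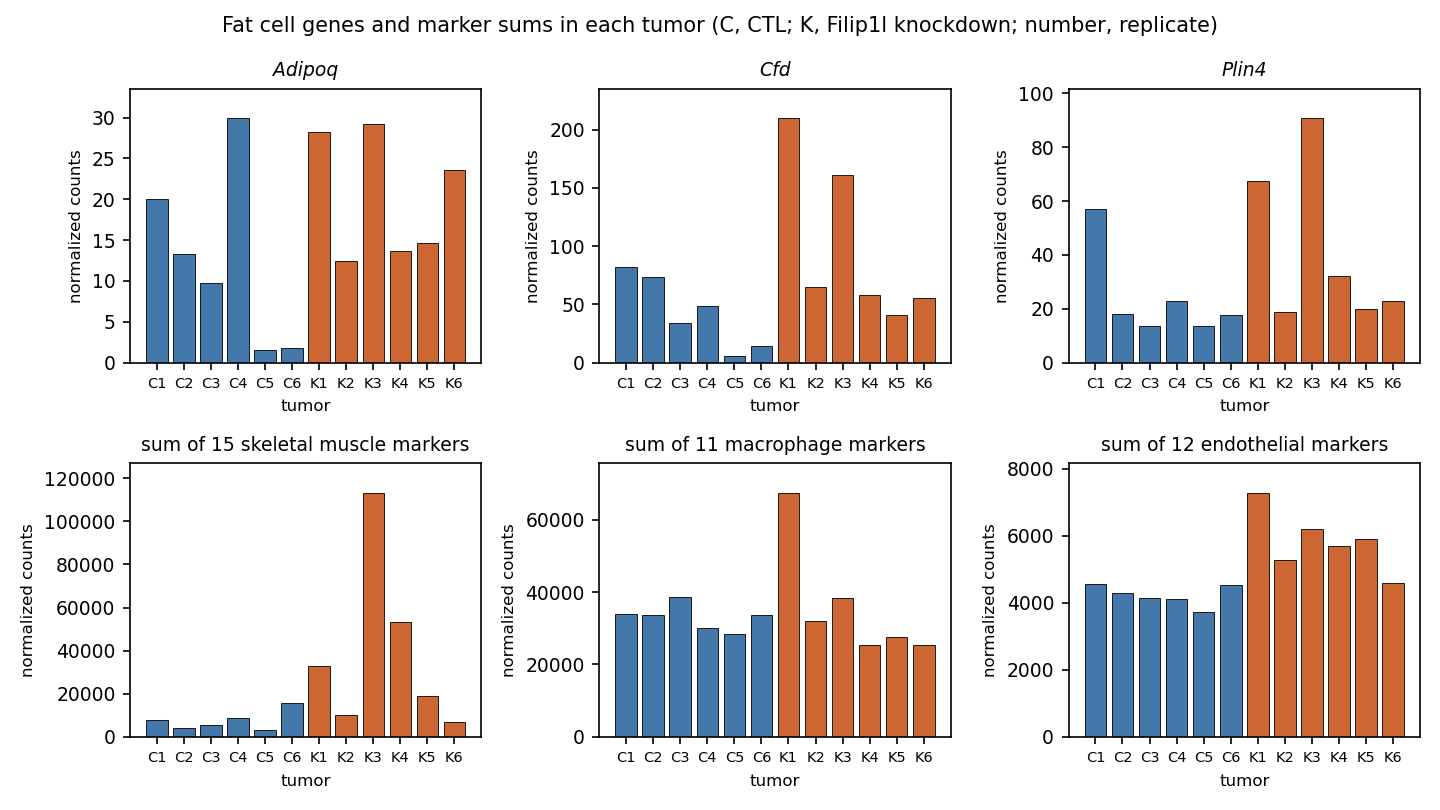
Normalized counts of *Adipoq*, *Cfd* and *Plin4* and summed normalized counts of skeletal muscle, macrophage and endothelial markers in each tumor, CTL replicates 1 to 6 (C) and *Filip1l*-knockdown replicates 1 to 6 (K), 1 bar per tumor. Knockdown replicates 1 and 3 are highest of their group for all 3 genes, replicate 3 has the highest muscle sum (113366) and replicate 1 the highest macrophage sum (67497).

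*Filip1l*-knockdown replicates 1 and 3 were the 2 highest knockdown tumors for *Adipoq*, *Cfd*, *Plin4*, *Lpl*, *Cd36* and *Fabp4*, but not for *Cidec*, which was highest in replicate 2. After group means were removed, 36 pairs of the 9 genes were correlated over the 12 tumors with 100000 permutations. Pearson's r was 0.849 for *Adipoq* with *Cfd* (p = 0.00269, adjusted p = 0.0484) and 0.840 for *Fabp4* with *Plin4* (permutation p = 0.00207, adjusted p = 0.0484). Spearman's rho was 0.804 (permutation p = 0.00465) and 0.741 (permutation p = 0.00971), each with an adjusted p of 0.0833. Without the 2 tumors farthest from the median, r was 0.709 and 0.552. The next pairs by r were *Cfd* with *Plin4* (r = 0.718, rho = 0.706, adjusted p = 0.0947 and 0.0833 by permutation), *Cfd* with *Fabp4* (r = 0.700, rho = 0.734, adjusted p = 0.127 and 0.0833 by permutation) and *Lpl* with *Cd36* (r = 0.670, rho = 0.727, adjusted p = 0.127 and 0.0833 by permutation).

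Skeletal muscle markers were higher in the knockdown group. Of 15 muscle markers, 13 rose, none was at 0 in any tumor, and their sum ranged from 3094 to 15533 normalized counts in CTL and from 6777 to 113366 in *Filip1l*-knockdown tumors, highest in replicates 3 (113366) and 4 (53188), with replicate 1 at 33056. Without replicates 3 and 4, *Cidec* (1.21), *Fabp4* (0.91), *Lpl* (1.40), *Cd36* (1.14) and *Plin2* (-0.53) kept a limma adjusted p of 0.000616 to 0.00497, while *Adipoq* was at 1.07, *Cfd* at 1.22 and *Plin4* at 0.40 (limma adjusted p = 0.529). Enterocyte markers, of which 10 of 12 rose and 0 fell, summed to between 27550.3 and 38936 in CTL and between 73894 and 141162 in *Filip1l*-knockdown tumors, lowest among the knockdown tumors in replicate 1. Their part in the results for *Pparg*, *Cideb* and the genes of triglyceride synthesis was not tested. Of other tissues near the site, the fibroblast list had 1 gene higher and 3 lower of 10, the epidermis list 0 and 2 of 6, and the sebaceous gland list 0 and 1 of 4.

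Of 20 other gene symbols listed as enriched in fat cells, 13 were analysed. Of these 13, 2 rose, 2 fell and 9 did not pass, beside 21.1% higher and 20.7% lower of all genes. Their median log2 fold change was 0.18. *Car3*, a carbonic anhydrase of fat and muscle, had 111 to 726 normalized counts in CTL tumors (median 236) and 315 to 4987 in *Filip1l*-knockdown tumors (median 967), a log2 fold change of 2.00 (limma adjusted p = 0.0266). It did not pass without CTL replicate 2 (limma adjusted p = 0.0614), CTL replicate 5 (0.0527), *Filip1l*-knockdown replicate 3 (0.0568) or replicate 4 (0.0598), and without both of the last 2, those with the highest muscle sums, it was at 1.03 (0.133). *Slc2a4*, the insulin-responsive glucose transporter of fat and muscle, rose from 13.9 ± 7.76 to 55.1 ± 35.3 normalized counts (log2 fold change 1.87, limma adjusted p = 0.00317), and stayed at 1.48 without those 2 tumors (limma adjusted p = 0.0205). *Rbp4*, the retinol carrier, fell from 1698 ± 173 to 596 ± 235 (log2 fold change -1.60, limma adjusted p = 4.39e-05) with separate groups. It lies on chromosome 19, where the median gene was lower by 0.36 (log2). *Sncg* had a log2 fold change of -0.40 and was the other gene that fell. *Lipe* (-0.24), *Gpd1* (0.18), *Thrsp* (0.22), *Nnat* (0.23) and *Trarg1* (0.00) did not pass.

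Of 9 analysed brown and beige fat genes, 5 rose and 1 fell, with a median log2 fold change of 0.85. Beside *Cidea* these were *Cox8b* (6.22 ± 1.48 to 37.9 ± 31.7 normalized counts, log2 fold change 2.04, limma adjusted p = 0.00362), *Cited1* (1.98), *Tmem26* (0.92) and *Cox7a1* (0.85), and the gene that fell was *Prdm16* (-0.49), a regulator of brown fat identity. *Cox8b* and *Cox7a1* encode cytochrome oxidase subunits that muscle also makes. Without *Filip1l*-knockdown replicates 3 and 4, *Cox8b* was at 1.44 (limma adjusted p = 0.0204), and *Cited1* no longer passed (limma adjusted p = 0.0667). *Ucp1*, the uncoupling protein that defines brown fat, was not analysed here. Of 13 preadipocyte and progenitor genes, 5 rose (*Pi16* 1.34, *Cd55* 0.87, *Ly6a* 0.69, *Icam1* 0.58 and *Cd34* 0.58) and 1 fell. That gene was *Dlk1*, which marks preadipocytes and is switched off as they mature, and it went from 175 to 438 normalized counts in CTL tumors to between 26.2 and 59.7 in *Filip1l*-knockdown tumors (log2 fold change -2.62, limma adjusted p = 3.84e-06). *Pdgfra* and *Pdgfrb*, receptors of stromal progenitors, did not pass (-0.41 and -0.38).

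The main enzymes that break down stored triglyceride did not pass the test. *Pnpla2*, which encodes ATGL, had 3481 ± 341 normalized counts in CTL and 3132 ± 280.04 in *Filip1l*-knockdown tumors (log2 fold change -0.15, 95% interval -0.31 to 0.01, limma adjusted p = 0.122), and passed with tumors scaled to the same total (limma adjusted p = 0.0273). *Lipe*, hormone-sensitive lipase, had 465 ± 57.9 and 393 ± 42.3 (log2 fold change -0.24, 95% interval -0.45 to -0.03, limma adjusted p = 0.0633), though it passed with DESeq2 (adjusted p = 0.0456), with the replicate block (limma adjusted p = 0.0418) and in 3 of the 12 fits that each left out 1 tumor. *Abhd5*, the activator of ATGL, had 574 ± 48.4 and 616 ± 31.1 (log2 fold change 0.10, 95% interval -0.04 to 0.25, limma adjusted p = 0.252). The ATGL inhibitor *G0s2* rose from 34.1 ± 11.9 to 80.0 ± 23.7 with separate groups (log2 fold change 1.23, limma adjusted p = 0.00149). *Abhd6*, a monoacylglycerol hydrolase, rose (1.23), and the genes that damp and carry the cAMP signal to lipolysis, *Pde3b* (-2.11) and *Prkar2b* (-1.12), fell. *Ces1d* passed at 1.75 (limma adjusted p = 0.0435) but in only 3 of the 12 fits that each left out 1 tumor, and its adjusted p reached 0.1001 without *Filip1l*-knockdown replicate 2. *Ces1d* also did not pass with edgeR (1.37, adjusted p = 0.139) or DESeq2 (1.34, adjusted p = 0.0984). In all, 3 of 13 lipolysis genes rose and 2 fell, beside 21.1% and 20.7% of all genes, with a median log2 fold change of -0.09.

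Of 14 analysed genes of triglyceride synthesis, 8 rose, 2 fell and 4 did not pass, beside 21.1% higher and 20.7% lower among all genes, with a median log2 fold change of 0.55. *Dgat2*, which adds the last fatty acid, went from 196 to 618 normalized counts in CTL tumors to between 433 and 1064 in *Filip1l*-knockdown tumors (log2 fold change 1.32, SE 0.27, limma adjusted p = 0.00125). *Dgat1* rose by 0.59. *Mogat2*, the monoacylglycerol route used in gut, rose by 1.69 and *Lpin3*, a phosphatidate phosphatase, by 1.20 (log2 fold changes, limma adjusted p = 3.00e-05 and 1.13e-05), both with separate groups. *Gpat3* (0.96), *Lpin1* (0.85), *Gk* (0.75) and *Agpat2* (0.51) also rose, while *Gpat4* (-0.35) and *Agpat3* (-0.12) fell. Of 21 genes of fatty acid oxidation, 14 rose and 0 fell, with a median log2 fold change of 0.36. *Ehhadh*, the peroxisomal bifunctional enzyme (log2 fold change 1.40, limma adjusted p = 3.26e-06), and *Ucp2*, a mitochondrial carrier (1.03, limma adjusted p = 1.67e-05), were past 1, and *Cpt1a*, the enzyme that admits fatty acids to mitochondria in most tissues, had 4696 and 4703 mean normalized counts in the groups.

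**Figure D4:**
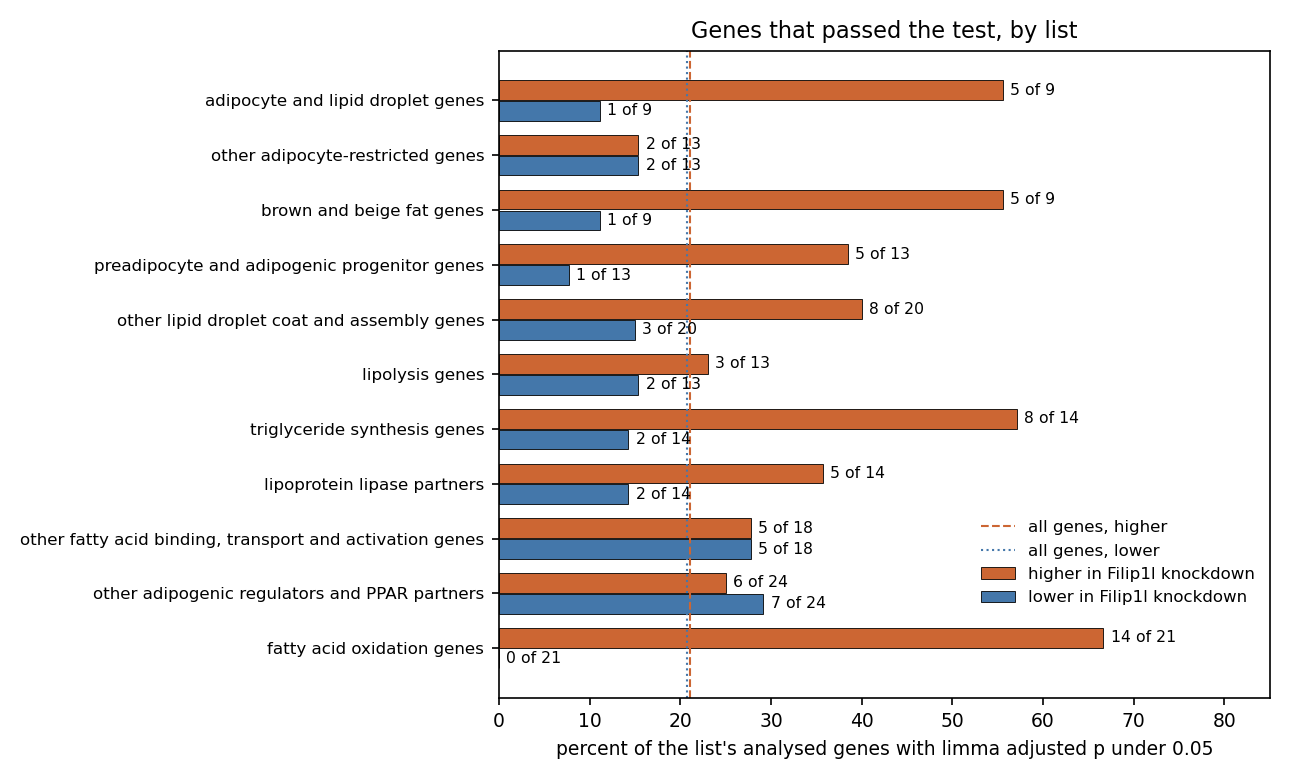
Percent of each list's analysed genes with a limma adjusted p under 0.05, higher (orange) or lower (blue) in *Filip1l*-knockdown tumors, with the count beside each bar and lines at the 21.1% higher and 20.7% lower of all 15687 genes. Fatty acid oxidation (14 of 21 higher, 0 lower) and triglyceride synthesis (8 of 14 higher) lie right of the lines, and other adipocyte-restricted genes (2 of 13 each way) lie left of them.

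The genes whose log2 values followed each gene most closely over the 12 tumors, once group means were removed and at a mean of at least 50 normalized counts, are given as a description. For *Pparg* they were *Tmem135* (r = 0.951), *Krt20* (0.949) and *Pgk1* (0.947), of which *Krt20* encodes a keratin of gut epithelium. For *Cd36* they were *Lgi2* (0.961), *Kit* (0.939) and *Tgfbr3* (0.904), and all 3 lie on chromosome 5, as *Cd36* does. *Lpl* was followed most closely by *Cbfa2t3* (0.945), also on its own chromosome 8, and *Plin2* by *Zc3h10* (0.915), with *Mttp*, a gene of lipoprotein assembly, at 0.886. The muscle gene *Myl2* came first for *Adipoq* (0.901) and *Apold1*, an endothelial gene, was among the first 3 for both *Adipoq* (0.833) and *Cfd* (0.909). The dermal fibroblast gene *Dpt* was among the first 3 for *Plin4* (0.882). *Txnl1* (0.903) came first for *Cidec* and *Sox5* (0.840) for *Fabp4*.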

How the data were processed

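RNA from 12 subcutaneous tumors, 6 CTL and 6 *Filip1l*-knockdown, was sequenced by the authors after oligo(dT) selection with a library kit that is not stated to keep strand. Per the labels and the study's methods, reads were demultiplexed with bcl2fastq 2.20, trimmed with Trimmomatic 0.36, aligned with STAR 2.5.2b and counted per gene with featureCounts of Subread 1.5.2, and the submitters' processing notes name the build mm10. The authors divided each tumor's counts by its DESeq2 size factor, so the deposited values are a normalized signal with no correction for gene length. Whole reads were recovered from the steps of these values, with 100% of the values whole within 0.01 read. They gave the depths, the floor of 3 reads and the edgeR and DESeq2 alternatives. Floors cover counting error only.

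All 12 tumors were grouped by their labels. Values were compared as log2(normalized count + 1) in R 4.3.3 by limma (version 3.58.1, variance trend on) and Benjamini-Hochberg adjustment over 15687 genes, and exact two-sided permutation tests used every arrangement of the labels. A filter at a mean of 5 removed 0 genes. The labels call the tumors biological replicates, and p-values measure the spread between tumors. The groups grew from separately transduced and selected cells, so a difference between the cell pools cannot be told apart from the knockdown. The median gene differed between the groups by 0.38 (log2) on chromosome 14, -0.36 on chromosome 19 and -0.20 on chromosome 8. Symbols, exons and lengths came from GENCODE vM21, which held 15661 of the identifiers (99.83%). The members, lists, tests and alternatives were chosen with earlier results of these data known. All members were named, with the direct partners of each and the genes of each list past both thresholds, adjusted p under 0.05 and log2 fold change beyond 1 in either direction (at most 6 a list). Other genes of a list were named after their values were seen, to account for its counts. The replicate numbers of the labels do not pair the tumors: same-numbered tumors correlated at -0.269 to 0.0990 after group means were removed. In simulated data, 97 of 100 genes with a log2 change of 1.5 and 100 of 100 with a change of 3 were called among 15687. edgeR 4.0.16, DESeq2 1.42.0, Python 3.11.15 and matplotlib 3.10.9 were used. *Plin1* was not analysed here, and a few results for single genes are not reported here.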

Additional observations from a re-analysis of the deposited data

Results flagged for a closer look

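The 9 members and 41 other named genes in either group made 100 groups of 6 tumors. Those other genes were direct partners of members or genes of a list past both thresholds in these data. In 9 of them a tumor was set apart from the other 5 by Dixon's test at 95%. For independent groups of normally distributed values, chance gives about 1 in 20. That rate does not apply directly here, since the values were untransformed normalized counts and several groups shared CTL replicate 5. Each tumor set apart was the highest of its group. Among the members the tumor set apart was CTL replicate 1 for *Plin4*, at 57.0 normalized counts against 13.4 to 22.9 in the other CTL tumors. CTL replicate 5, the tumor with the fewest reads, stood highest for *Ces1d* (83.7 against 4.73 to 19.0), *Cited1* (29.9 against 4.41 to 11.4), *Ehhadh* (170.3 against at most 113), *Fabp2* (11.9 against 0 to 4.41) and *Mettl7b* (64.2 against 24.9 to 39.0). CTL replicate 6 stood highest for *Fitm1* (24.7 against 3.89 to 8.00). *Filip1l*-knockdown replicate 1 stood apart for *Pcsk6* (1314 against 417 to 701) and replicate 3 for *Slc2a4* (122 against 18.7 to 55.8), the tumors with the highest macrophage and muscle marker sums. The part of depth or of other cells in these values was not tested.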

How the results depend on the processing

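The counts of members that rose (4 to 6 over all alternatives), of members that fell (1 in each) and of genes called stayed within 1.5 times their values. The count of members that rose with a log2 fold change over 1 was 3 to 5. *Fabp4*, at 1.02, was below 1 in several alternatives. It was at 0.983 with tumors scaled to the same total and at 0.902 without *Filip1l*-knockdown replicate 3, and passed the test in both. Counts of small lists moved by more in 28 instances, each a count of 4 genes or fewer. *Cfd* passed with the replicate block (limma adjusted p = 0.0182) and without CTL replicate 1. The replicate block, with numbers that do not pair the tumors and 0 of 6 tumors closest to their own number, gave 1554 genes past both thresholds against 1596. *Pparg* was lost without the 2 knockdown tumors of highest muscle sum, an alternative added after seeing the data. Signs turned only for genes that did not pass: *Cebpb* was at 0.0049 with DESeq2, *Gpihbp1* at -0.0216 with tumors scaled to the same total, -0.0437 with edgeR and -0.0303 with DESeq2, and *Plin3* at -0.00485 at the same total and -0.00101 with chromosome medians removed. Over fits that each left out 1 tumor, *Cebpa* ranged from -0.129 to 0.0190, *Cebpb* from -0.139 to 0.0892, *Gpihbp1* from -0.158 to 0.107 and *Plin3* from -0.0203 to 0.0868. The cause was not tested. *Ces1d* was also lost without a trend (limma adjusted p = 0.0615) and with a pseudocount of 8 (limma adjusted p = 0.0575). *Adipoq* had 2 CTL tumors at or under 3 reads, of which CTL replicate 5 was the shallowest CTL tumor and replicate 6 the deepest.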
